A study of Rattus norvegicus with 10 samples.

Results

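Fas (ENSRNOG00000019142) and Eda2r (ENSRNOG00000013018), genes of 2 receptors of the tumour necrosis factor (TNF) receptor superfamily, were examined in the left ventricle of rats given dexmedetomidine (DEX), an alpha2 adrenergic agonist. They were 2 of the 20174 gene probes on each array. Both were chosen because they stand in the study's lists of mRNAs changed after DEX on these same arrays and because both are known targets of p53, so their difference between the groups is given below as a description and without a test. Tests are given only for covariation within the groups and for properties of the arrays, which did not enter the choice.

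The rats were male Wistar rats of 250 to 350 g. The DEX group (n = 5) received DEX intravenously, first at a loading and then at a maintenance rate, for 30 min in all before a saline washout, and the control group (n = 5) received saline on the same schedule. No coronary occlusion preceded sampling, and RNA came from the anterior wall of the left ventricle as a whole tissue, so that fewer cells of a type and less RNA per cell cannot be told apart. Each rat has 1 single-colour Toray 3D-Gene array with 1 spot for each gene probe.

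Fas is the surface receptor for Fas ligand. Its cytoplasmic death domain recruits the adaptor FADD and an initiator caspase, and the receptor is the textbook case of extrinsic apoptosis. Eda2r is an X-linked receptor for an isoform of ectodysplasin A. It signals through TRAF proteins and carries no death domain, so that only Fas is a death receptor in the strict sense. Transcription of both genes is known to rise when p53 is activated.

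The promoters are shown because the genes are grouped by a shared regulator. Each sequence runs from 250 bases before to 50 bases after the annotated start, in the direction of transcription, from the RefSeq promoter table of the rat assembly GRCr8. That of Fas lies on the plus strand at chr1:241211905-241212204 and that of Eda2r on the minus strand at chrX:66280571-66280870. Capitals mark matches to the motifs named next.
Fas: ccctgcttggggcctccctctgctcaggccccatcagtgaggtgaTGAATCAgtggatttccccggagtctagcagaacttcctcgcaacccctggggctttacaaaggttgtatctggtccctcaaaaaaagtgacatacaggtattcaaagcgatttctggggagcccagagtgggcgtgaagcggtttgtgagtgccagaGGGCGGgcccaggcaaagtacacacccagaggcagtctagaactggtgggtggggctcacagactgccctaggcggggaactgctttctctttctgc
Eda2r: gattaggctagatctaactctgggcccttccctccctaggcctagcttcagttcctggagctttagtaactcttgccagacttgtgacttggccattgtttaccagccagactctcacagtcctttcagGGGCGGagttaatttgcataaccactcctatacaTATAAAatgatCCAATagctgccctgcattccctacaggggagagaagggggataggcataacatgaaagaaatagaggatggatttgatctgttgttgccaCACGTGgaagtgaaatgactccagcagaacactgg
Both promoters hold the GC box GGGCGG, with its first base at -47 in Fas and at -121 in Eda2r relative to the annotated start. GGGCGG was found in 33.1% of the 33469 promoters of the table. The AP-1 motif was searched in a loose form, TGANTCA, that takes any middle base (7.33% of all promoters). It was found at -205 in Fas, as TGAATCA, and not in Eda2r. The Eda2r promoter holds TATAAA at -87 (14.2% of all promoters), CCAAT at -76 (37.5%) and the E-box CACGTG at 15 (6.42%), none of which was found in the Fas window. The cyclic AMP response element TGACGTCA (1.83% of all promoters) and the p53 half-site (7.98%) were found in neither window. Both strands were searched and no 2 matches overlapped. A match here is a run of letters and not a shown site of binding, and the lack of one says only that these letters are not in this window. The GC content was 56.7% for Fas and 47.3% for Eda2r, against a median of 51.7% over all promoters.

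Signals are normalized intensities. The mean of the blank spots of the array was subtracted from the spot, and each array was scaled to a median of 25 over the probes detected on it. A probe counts as detected above 2 SD of the blank spots. On this scale both receptors were dim, and both were detected on all 10 arrays. Signals of the probes cannot be set against each other, so the order of Fas and Eda2r within a rat has no meaning.

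The normalized signal of Fas in the control rats was 8.58 in rat 1, 7.67 in rat 2, 6.05 in rat 3, 6.38 in rat 4 and 7.35 in rat 5. In the DEX rats it was 6.996 in rat 1, 2.996 in rat 2, 4.73 in rat 3, 4.96 in rat 4 and 4.003 in rat 5. DEX rat 1 stood inside the control range, above control rats 3 and 4, and the other DEX rats lay below every control rat. The groups therefore overlapped, and the DEX value was the lower in 23 of the 25 pairs of a DEX and a control rat. The mean was 7.21 ± 1.02 (SD, n = 5) among control rats and 4.74 ± 1.48 (SD, n = 5) among DEX rats, a ratio of 0.657. The log2 difference was -0.65 (standard error 0.20, 95% interval -1.08 to -0.22). The interval does not allow for the choice of Fas by this same difference and is no test.

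The normalized signal of Eda2r in the control rats was 6.55 in rat 1, 5.19 in rat 2, 7.01 in rat 3, 5.48 in rat 4 and 7.12 in rat 5. In the DEX rats it was 3.07 in rat 1, 2.66 in rat 2, 2.82 in rat 3, 3.30 in rat 4 and 3.87 in rat 5. Every DEX rat lay below every control rat, in 25 of 25 pairs, and the highest DEX value was 3.87 against a lowest control value of 5.19. The mean was 6.27 ± 0.886 (SD, n = 5) among control rats and 3.14 ± 0.473 (SD, n = 5) among DEX rats, a ratio of 0.501. The log2 difference was -0.997 (standard error 0.14, 95% interval -1.31 to -0.69). For Eda2r too, the interval does not allow for the choice of the gene by this difference.

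**Figure D1:**
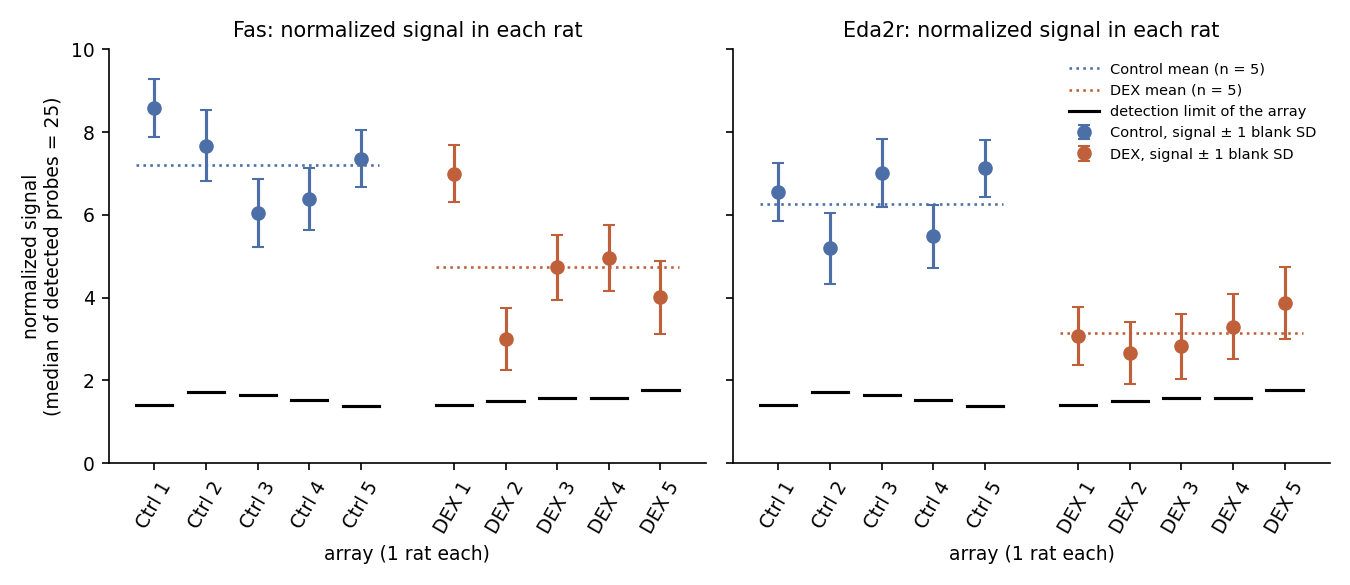
Normalized signal (y axis, linear, median of detected probes 25) of Fas (left) and Eda2r (right) in each rat (x axis), with bars of 1 SD of the blank spots of that array, dotted group means (n = 5) and black lines at the detection limit of each array. DEX rat 1 lies among the control rats for Fas at 6.996, and no DEX rat reaches the control range for Eda2r.

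The spread among rats differed between the receptors. For Fas the coefficient of variation was 14.1% in the control group and 31.2% in the DEX group, and the SD of log2 signals was 0.20 and 0.45. DEX rats 1 and 2 made the ends of that range. For Eda2r the coefficients were 14.1% and 15.1%. The SD of Eda2r among DEX rats, 0.473, was smaller than 1 SD of the blank spots within an array, which averaged 0.778 on the DEX arrays. The deposited table holds the same signals as whole numbers, which leaves few steps at this level. Fas stands there at 9, 8, 6, 6 and 7 in the control group and at 7, 3, 5, 5 and 4 in the DEX group, and Eda2r at 7, 5, 7, 5 and 7 and at 3, 3, 3, 3 and 4. The ratios of the rounded means were 0.667 and 0.516.

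With the median scaling described, the contrast that chose both genes leaned downward across the array. Of 14519 probes tested, 485 (3.34%) were at least 1.5-fold lower in the DEX group and 79 (0.544%) at least 1.5-fold higher. With an unadjusted limma p under 0.05 as well, 392 (2.70%) were lower and 64 (0.441%) higher, and both receptors are among the 392. The lean turned round in other settings, with 74 lower and 257 higher probes after quantile normalization, 114 and 193 with scaling on probes detected on all arrays, 81 and 225 centred on probes of like brightness, 52 and 335 with the negative controls as the zero, and 79 and 255 with the blank mean as a covariate. Leaving out 1 array moved the lower count between 211 (without control rat 1) and 682 (without control rat 5). After Benjamini-Hochberg adjustment limma called 0 probes, with 2100 at an unadjusted p under 0.05. The test of the methods also called 0, with 1994 on log2 signals and 1859 on linear signals. Every DEX rat was below every control rat for 209 probes (1.44%), Eda2r among them and Fas not, and above every control rat for 28 (0.193%). A fall at least as large as that of Eda2r was seen in 30 probes (0.207%), and one at least as large as that of Fas in 322 (2.22%). The median log2 difference over all probes was -0.17, and 79.9% of probes were lower in the DEX group to some degree. Since the contrast chose the genes, these shares describe where they stand and nothing more.

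Falls of this size made up a larger share among probes as dim as the receptors. Among the 1858 probes within 0.5 log2 units of Fas in mean signal, 111 (5.97%) were at least 1.5-fold lower, 11 (0.592%) at least 1.5-fold higher, and 38 (2.05%) had every DEX rat below every control rat. Among the 1776 probes within the same distance of Eda2r, the counts were 144 (8.11%), 11 (0.619%) and 27 (1.52%). The median log2 difference was -0.16 around Fas and -0.19 around Eda2r. With each probe centred on the probes of like brightness on each array, the log2 difference was -0.48 for Fas and -0.81 for Eda2r.

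The distance from the detection limit was then measured. For Fas the signal was 6.14, 4.49, 3.68, 4.22 and 5.36 times the limit of its own array in control rats 1 to 5 and 5.01, 2.0, 3.03, 3.15 and 2.28 times in DEX rats 1 to 5. For Eda2r it was 4.69, 3.04, 4.26, 3.62 and 5.19 times in the control rats and 2.20, 1.77, 1.81, 2.10 and 2.20 times in the DEX rats. No value fell to this limit, which is set without the outer 5% of blank spots on each side, and the nearest was Eda2r in DEX rat 2 at 1.77 times. Over all blank spots the limit was 7.78 in DEX rat 3, above both receptors, and 2.71 in DEX rat 2, above Eda2r at 2.66. In SDs of the blank spots, Fas lay 7.36 to 12.3 above the blank mean in the control group and 3.999 to 10.02 in the DEX group, and Eda2r 6.07 to 10.4 and 3.55 to 4.41. The difference between the group means was 3.21 blank SDs for Fas and 4.05 for Eda2r. Of the probes detected on an array, between 22.5% and 30.4% (median 27.0%) were dimmer than Fas in the control rats and between 9.13% and 25.8% (median 17.4%) in the DEX rats. For Eda2r the shares were 19.1% to 26.7% (median 25.2%) and 7.26% to 12.6% (median 10.8%). The limit itself averaged 1.53 ± 0.148 (SD, n = 5) for control rats and 1.56 ± 0.131 (SD, n = 5) for DEX rats, which differed by less than the spread among rats (two-sided exact permutation test, p = 0.754). Over all blank spots the limit was 1.51 higher in the DEX group (two-sided exact permutation test, p = 0.0476).

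Before the blank mean was subtracted, the spots of both receptors were about as bright in the DEX rats as in the control rats. The scanner intensity of the Fas spot was 66.6 ± 1.28 (SD, n = 5) among control rats and 66.8 ± 1.23 (SD, n = 5) among DEX rats. That of the Eda2r spot was 65.6 ± 2.12 (SD, n = 5) and 65.0 ± 1.57 (SD, n = 5). The values of the groups overlapped for both spots, with differences of DEX minus control of 0.172 for Fas and -0.62 for Eda2r. The blank spots, which carry no gene probe, were brighter on the DEX arrays, at 61.4 ± 1.01 (SD, n = 5) against 58.8 ± 1.43 (SD, n = 5). The difference of the means was 2.61 (two-sided exact permutation test, p = 0.0159). The groups overlapped, with 57.1 to 60.5 on the control arrays and 59.9 to 62.6 on the DEX arrays. The blank mean also rose with the replicate number among the control arrays, and the test does not account for an order of the arrays. Above the blank mean and before scaling, Fas stood at 7.84 ± 0.798 (SD, n = 5) among control rats and 5.40 ± 1.62 (SD, n = 5) among DEX rats, and Eda2r at 6.85 ± 1.01 (SD, n = 5) and 3.62 ± 0.740 (SD, n = 5). The differences in normalized signal thus came with a higher blank level and with little difference in the spots. The part of the blank level in the result was not tested.

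**Figure D2:**
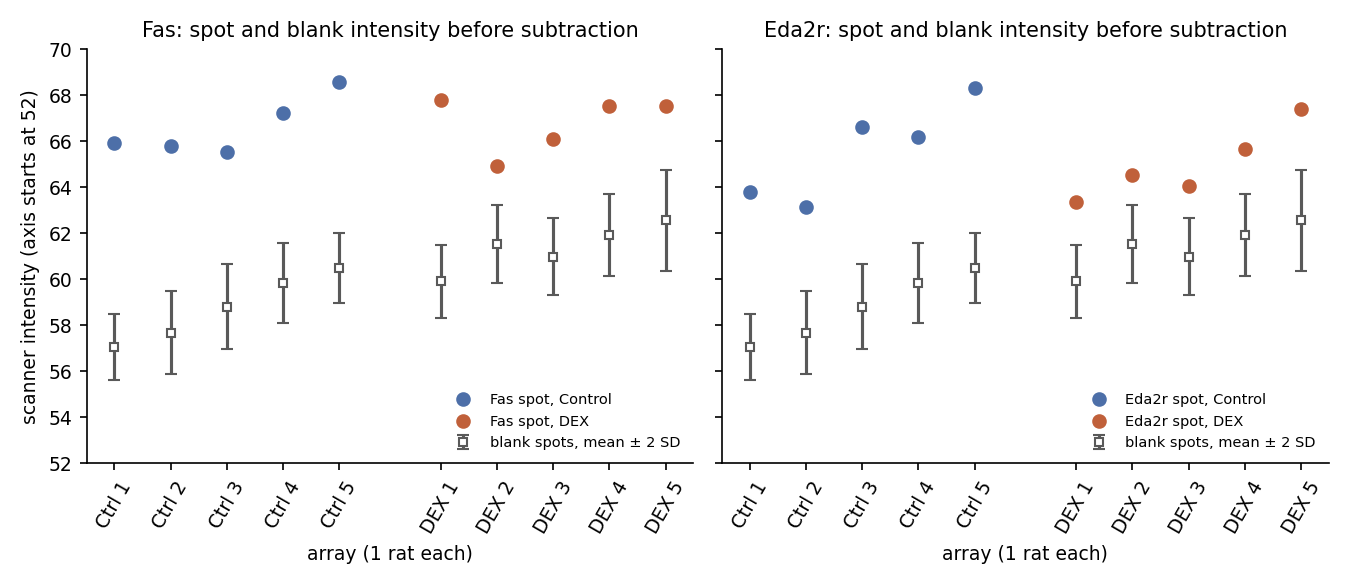
Scanner intensity before subtraction (y axis, linear, starting at 52) of the Fas spot (left) and the Eda2r spot (right) on each array (x axis), as filled points, with the mean of the blank spots ± 2 SD as open squares. The spots of the groups overlap, while the blank mean runs from 57.1 to 60.5 in control rats and from 59.9 to 62.6 in DEX rats.

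The 96 spots of the 4 probes named as negative controls were subtracted and scaled in the same way. Their median was 0.418 ± 0.299 (SD, n = 5) among control rats and -0.091 ± 0.147 (SD, n = 5) among DEX rats, a DEX minus control difference of -0.509 signal units (two-sided exact permutation test, p = 0.0317). Each of the 4 probes was lower in the DEX group, with differences from -0.669 to -0.427 units, exact permutation p-values from 0.00794, the smallest that 5 arrays against 5 allow, to 0.0635 and adjusted values over the 4 probes from 0.0159 to 0.0635. The differences of the receptors on the same scale were -2.47 units for Fas and -3.13 for Eda2r. With the mean of the negative control spots in place of the blank mean as the zero, the log2 difference was -0.41 for Fas and -0.73 for Eda2r. The scanner also recorded a background beside each spot, which the deposited signals do not use. Spot minus this background was 5.45 ± 2.95 (SD, n = 5) for Fas among control rats and 5.27 ± 2.47 (SD, n = 5) among DEX rats, and 4.27 ± 1.19 (SD, n = 5) and 4.51 ± 3.04 (SD, n = 5) for Eda2r, with overlap of the groups in both. The blank spots of 1 array varied around their mean by 1.20 to 1.41 (SD) on that scale.

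Fas was sensitive to single rats and to the scaling. Without DEX rat 1 its log2 difference was -0.80, and without DEX rat 2 it was -0.50, under 1.5-fold (0.585 on the log2 scale). Without control rat 1 it was -0.584, just under that fold. It was -0.49 after quantile normalization and -0.50 with arrays scaled on the 12718 probes detected on all 10 arrays. With the blank mean of each array as a covariate it was -0.25 (standard error 0.28). Eda2r ranged from -1.08 to -0.94 with each rat left out in turn and was -0.81 after quantile normalization, -0.85 with the common scaling and -1.16 (standard error 0.21) with the covariate. With the recorded background and an offset of 50, followed by quantile normalization, the log2 difference was 0.02 for both. That offset is several times the spot minus background of either receptor. Without an offset, mean spot minus background also differed between the groups by less than the SD among rats. It was 5.45 (control) and 5.27 (DEX) for Fas, and 4.27 and 4.51 for Eda2r. The part of the offset was not tested. Of 15 other ways of processing, Fas was at least 1.5-fold lower in 7 and Eda2r in 14. The replicate number as a block is among the 15, and in this balanced design it cannot change the difference. Most of these ways keep the blank spots as the zero, so they are not independent checks.

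**Figure D3:**
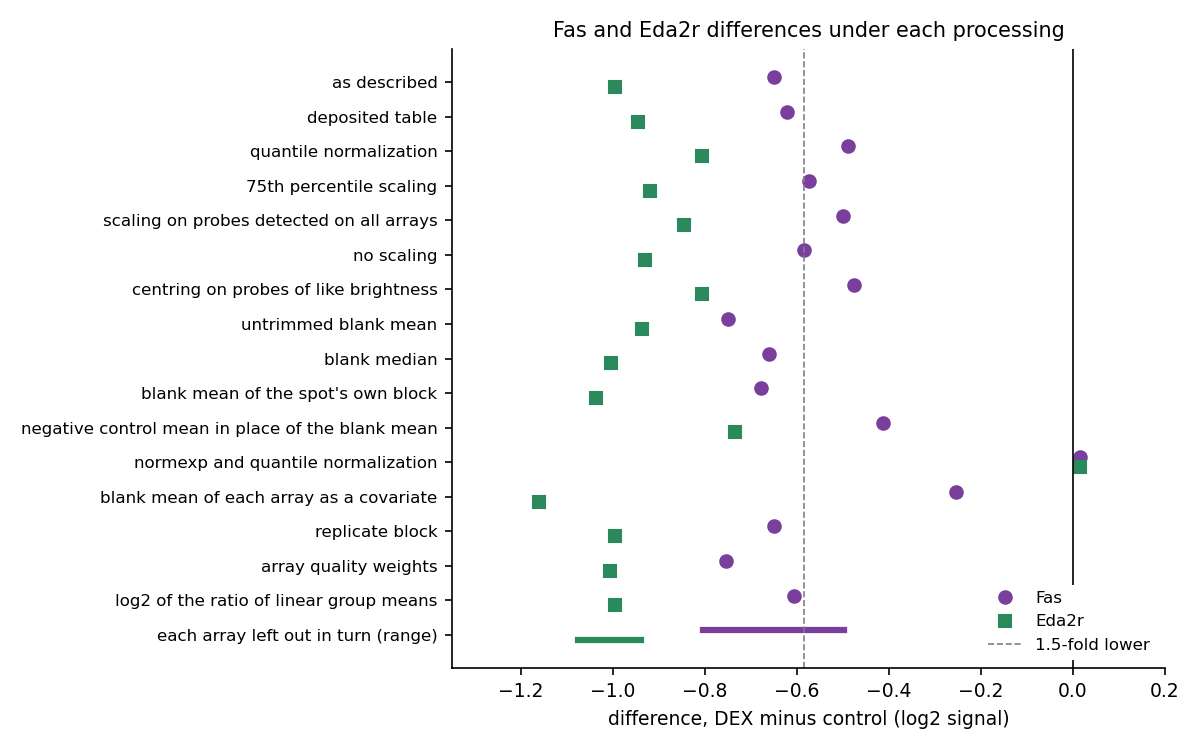
Log2 difference in normalized signal, DEX minus control (x axis), of Fas (circles) and Eda2r (squares) under the processing described and each alternative (y axis), with bars for the range when each array is left out and a dashed line at 1.5-fold lower. Eda2r lies left of the line in every setting but normexp at 0.02, and Fas lies on both sides of it.

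Within the groups the receptors did not vary together to a degree that could be detected. Each log2 signal was set against the mean of its group, which removes the difference that chose the genes. The deviations of Fas and Eda2r had the same sign in 5 of 10 rats, 3 control and 2 DEX. DEX rat 1 had the highest Fas deviation, 0.62, with Eda2r at -0.02, while DEX rat 2 was low in both, at -0.61 and -0.23. Over the 10 arrays Pearson's r was 0.103 (exact permutation test within groups, two-sided, p = 0.807) and Spearman's rho was -0.0788 (p = 0.846). Without DEX rats 1 and 2, the arrays farthest from the median of Fas, r was -0.268 (exact permutation, p = 0.549). With 10 arrays these values leave a wide range of relations possible.

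**Figure D4:**
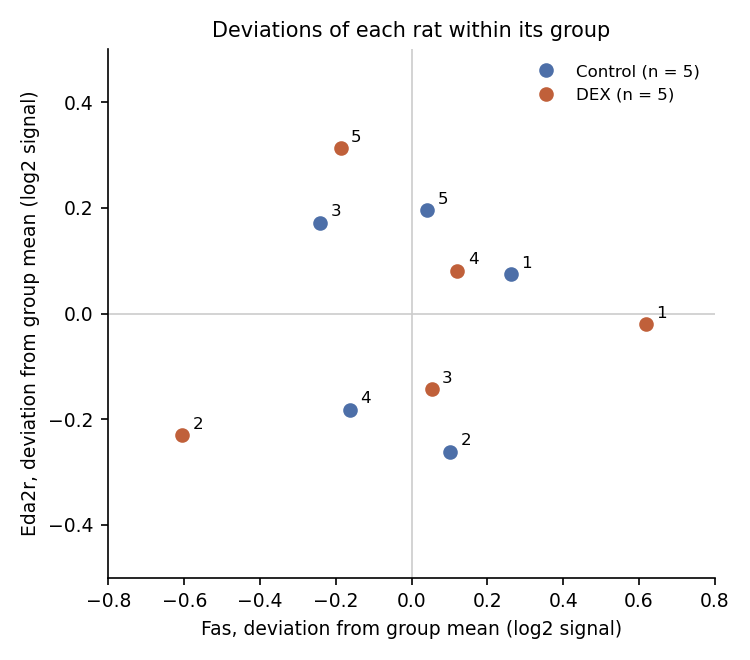
Deviation of the log2 signal from the group mean for Fas (x axis) and Eda2r (y axis) in each rat, numbered within the control and DEX groups. The points show no common direction (r = 0.103), and DEX rats 1 and 2 hold the ends of the Fas axis at 0.62 and -0.61.

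Relations with properties of the arrays were computed as well, which makes 5 relations in this family, with Benjamini-Hochberg adjusted p-values over the 5. The blank mean is subtracted from every spot, which by itself couples each signal negatively to it, and the permutation does not account for this. For Fas and the blank mean r was -0.541 (exact permutation, p = 0.0754, adjusted 0.314) and rho -0.576 (p = 0.0938, adjusted 0.235), with r at -0.586 without the same 2 DEX rats. For Fas and the shift of the probes of like brightness on the same array r was 0.517 (exact permutation, p = 0.126, adjusted 0.314) and rho 0.661 (p = 0.0585, adjusted 0.235), and r was 0.319 without them. For Eda2r and the blank mean r was 0.369 (exact permutation, p = 0.311, adjusted 0.519) and rho 0.455 (p = 0.227), but r fell to -0.0445 without control rat 2 and DEX rat 5, the farthest from the median of Eda2r, so that the value rests on those arrays. For Eda2r and the shift r was 0.139 (exact permutation, p = 0.71, adjusted 0.807) and rho 0.00606 (p = 1). None of the 5 relations passed a p of 0.05, and that between Fas and Eda2r had an adjusted p of 0.807 (exact permutation). The signs for Fas and Eda2r with the blank mean were opposite, and the difference between them was not tested.

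The same deviations were used to order other probes by likeness, as a description over 10 arrays on each of which all probes share 1 blank mean and 1 scaling factor. The median r with Fas over all other probes was 0.359, and Eda2r took place 11600 of 14518. The median r with Eda2r was 0.0263, and Fas took place 5884 of 14518. For each receptor, some probes without a symbol had a higher r than any of those named next. Of the 165 probes with a gene symbol, the most like Fas were Kcna4, a voltage-gated potassium channel (r = 0.829), Dyrk3, a dual-specificity kinase (0.793), Pnpla6, a phospholipase (0.772), Adamts10, a secreted metalloprotease (0.736), and Lrrc3b (0.716). Among the most like Eda2r were Prag1 (0.669), Sbk2 (0.601), Sostdc1, a secreted antagonist of bone morphogenetic proteins (0.596), and Mettl2 (0.568). None of these genes is named for both receptors.

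Only the 165 mRNAs in the study's lists could be given a symbol, all chosen on these arrays, and this limits what can be said of the pathway around the receptors. Of 25 receptors of the TNF receptor superfamily, Fas and Eda2r are the 2 with a symbol. Of 18 TNF ligands, Fas ligand and ectodysplasin A included, and of 21 genes of death receptor signalling, 0 have one, and their levels are not analysed here. Of 40 genes of the p53 pathway 4 have one, Fas and Eda2r included. All 4 are lower in the DEX group and past the thresholds of p and fold, as are 2.70% of all probes tested. The 4 genes were listed for a change on these arrays, and most mRNAs of the lists are lower, so this is no independent evidence of direction. Ccnd1, which encodes cyclin D1, stood at 135 ± 23.3 (SD, n = 5) among control rats and 85.0 ± 21.4 (SD, n = 5) among DEX rats, a log2 difference of -0.68. Atm, a kinase that phosphorylates p53, stood at 4.65 ± 1.46 (SD, n = 5) and 2.87 ± 0.487 (SD, n = 5), a log2 difference of -0.65. Within the groups, r with Fas was 0.594 for Ccnd1 and -0.148 for Atm, and r with Eda2r was -0.187 and 0.135.

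Markers of cell types moved in the same direction as the receptors where they have a symbol. Of the cardiomyocyte markers, Ttn, the sarcomeric spring titin, was 19.2 to 31.3 in the control group and 13.6 to 17.7 in the DEX group. For other cell types, the markers with a symbol were 1 of 4 for fibroblasts (Fap, 10.1 ± 2.02 and 6.60 ± 1.03, SD, n = 5), 1 of 3 for smooth muscle (Myocd, 7.03 ± 2.04 and 3.95 ± 0.597) and 1 of 2 for red cells (Slc4a1, 21.2 ± 5.63 and 13.5 ± 4.30), with 0 of 3 for endothelium and 0 of 4 for leukocytes. All of these markers are in the study's lists, most of whose mRNAs are lower, so a change on these arrays was a condition of their being named. Their part in the values of Fas and Eda2r was not tested. A place on one of these marker lists does not show that only that cell type made the RNA, Myocd included. The cardiac identity of the tissue rests on its stated origin in the left ventricle and not on Ttn being detected.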

How the data were processed

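mRNA was measured in the left ventricle of 5 control and 5 DEX rats, with samples grouped by their labels. The authors deposited the scanner intensity of each spot, with a recorded background, and a table of whole-number intensities after normalization. The methods give the median of 25, and the other steps were worked out by comparing the table with the scanner files. The mean of the 1344 blank spots without 68 on each side (5%) served as zero, and a spot counted as detected if it exceeded this mean by 2 SD without a failure mark. These steps gave 142667 of the 142668 deposited values, and the unrounded signals were used. No other step of the scanner software is given in the sources used here. The files list Ensembl identifiers, and symbols were taken from the study's lists of changed mRNAs where the ratio of means and p of 1 probe were those listed (165 of 165). The authors' own fold changes and p-values served only for this and are not printed.

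Log2 signals were fitted by the limma functions lmFit and eBayes (version 3.58.1, R 4.3.3), with no covariate and with thresholds of 0.05 and 1.5-fold. An undetected spot took the lowest signal detected on its array, and a probe entered the fit if 3 of 5 arrays in either group detected it. Permutations of arrays were exact and two-sided, in scipy 1.17.1 with pandas 2.3.3, numpy 2.4.6 and Python 3.11.15. The limma step was also run on simulated data with known changes. The number of arrays limits the precision. Genes named are Fas and Eda2r, the 5 probes with a symbol most correlated with each within groups, and list members with a symbol, of which 1 is not reported here. The members and lists were chosen with earlier results of these data known. No replicate files held the same values. Replicate numbers were checked for pairing, and the log2 signals of same-numbered arrays did not deviate together across probes (r from -0.0975 to 0.0699). The blank mean did rise with the number, from 57.1 on control array 1 to 60.5 on control array 5. On the DEX arrays it ran from 59.9 on array 1 to 62.6 on array 5, with array 3 below array 2. The replicate number as a block lowered the standard error from 0.20 to 0.18 for Fas and from 0.14 to 0.11 for Eda2r. Probes with an unadjusted limma p under 0.05 rose from 2100 to 3085, with 0 adjusted calls in both fits. Whether the numbers mark a shared day or slide is not stated, so pairing was not settled.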

Additional observations from a re-analysis of the deposited data

How the results depend on the processing

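Fas and Eda2r were lower in the DEX group under 14 of 15 alternatives each. The exception was normexp with an offset of 50 and quantile normalization, at 0.017 for Fas and 0.015 for Eda2r (log2). The blank mean as a covariate moved Fas to -0.25, and the negative control mean as the zero, chosen after the data were seen, moved Eda2r to -0.73. The causes were not tested. With each array left out, Fas ran from -0.80 to -0.50 and Eda2r from -1.08 to -0.94. The untrimmed blank mean left both undetected on DEX array 3 and Eda2r on DEX array 2 as well, with Fas at -0.75 and Eda2r at -0.94.

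The 392 lower and 64 higher probes became 74 and 257 with quantile normalization (median of all probes -0.01 in place of -0.17), 216 and 121 with the 75th percentile, 114 and 193 with scaling on common probes, 233 and 112 without scaling, 81 and 225 centred on probes of like brightness, and 1169 and 28 with the untrimmed blank mean, which also gave 62 adjusted calls. They became 52 and 335 with the negative control mean and 79 and 255 with the blank covariate. Lower probes numbered 105 after normexp and 239 among probes detected on all 10 arrays. With each array left out the lower count ran from 211 (without control array 1) to 682 (without control array 5, with 19 adjusted calls), and was 646 without DEX array 1. The higher count ran from 26 (without control array 3) to 131 (without control array 4), and was 110 without DEX array 3. The methods' t-test gave 278 lower and 55 higher on log2 signals and 263 and 45 on linear signals, with 0 adjusted calls in each. The replicate number as a block gave 383 and 66. In this balanced design the block cannot move a group difference, so Fas stayed at -0.65 and Eda2r at -0.997. Pairing by replicate number was not settled.

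The correlation of Fas with Eda2r was -0.0743 with the deposited table, -0.0531 with quantile normalization, -0.0174 with the 75th percentile, -0.0817 with common scaling, -0.00107 on linear signals and -0.0788 as a rank correlation. It was higher than the 0.103 described at 0.256 with the untrimmed blank mean, 0.375 with block-wise blank means, 0.387 with the blank mean removed and 0.407 after normexp, and exact permutation p-values over its alternatives ran from 0.289 to 0.997. With each array left out it ran from -0.299 (without DEX array 2) to 0.288. Fas with the blank mean ran from -0.697 to -0.332, with the lowest exact permutation p 0.0431 (without DEX array 2) and 0.0458 without control array 5. Eda2r with the blank mean ran from 0.198 to 0.549, Fas with the shift from 0.307 to 0.651 (lowest exact permutation p 0.0323, without DEX array 3), and Eda2r with the shift from 0.000601 to 0.449. The difference in the detection limit ran from -0.0194 to 0.0755 and was 1.51 from untrimmed blank spots (exact permutation p = 0.0476). That in the negative controls ran from -0.626 to -0.447.

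A slide or scan group as a block was not run, as the files give none. The correlation with the replicate number removed was not run either, since the 5 differences left are too few for a correlation. Block-wise blank means, the blank mean removed from the correlation, the negative control zero and the array left out for the relations and the negative controls were chosen after the data were seen.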

Other observations

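The blank spots of DEX array 3 had a wider spread than those of the other arrays before trimming. Their SD was 4.21 in scanner intensity, against 0.945 to 1.80 on the other 9 arrays, and 0.844 after the outer 5% on each side were left out. Spots without any probe stood at 0.439 ± 0.056 (SD, n = 5) in control rats and 0.564 ± 0.114 (SD, n = 5) in DEX rats after the same subtraction and scaling (two-sided exact permutation test, p = 0.0635), the opposite direction to that of the negative control probes. The Fas spot lies in block 17 and the Eda2r spot in block 13 of 24, so that they do not share neighbours on the array. With the blank mean of the spot's own block as the zero, chosen after the data were seen, the log2 difference was -0.68 for Fas and -1.04 for Eda2r.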
